A study of Mus musculus with 6 samples.

Results

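The mouse genes of the Slc2, Slc5 and Slc16 families, which encode the carriers that move glucose, other sugars, inositol and monocarboxylates such as lactate across membranes, were followed in uteri with and without *Sox17* in the epithelium. They were taken by symbol alone (Slc2a, Slc5a or Slc16a and a number), so no measured value decided which genes of the families entered. The families themselves were chosen with earlier results of these data known. The gene table held 40 such genes, 38 of which had at least 1 array probe named by its RefSeq accession (50 probes in all), among 20145 genes with a named probe. No probe was matched to *Slc2a12* or to the pseudogene *Slc2a4rg-ps*, which were not analysed here.

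Whole uteri were compared between 3 Sox17f/f mice, which carry floxed *Sox17* alleles and no recombinase, and 3 Sox17ed/ed mice (LtfiCre/+ Sox17 f/f), each on its own 1-colour Agilent array. In Sox17ed/ed mice the iCre is expressed from 1 *Ltf* allele and acts in the uterine epithelium from puberty on, so that *Sox17* of other uterine cells, such as endothelium, is not its target. Females were mated at 8 to 10 weeks of age, and uteri, emptied of embryos, were taken at gestation day (GD) 3.5, the day of the vaginal plug being GD 0.5, which is the time of uterine receptivity shortly before the embryo implants. Every mouse, controls included, was pregnant by natural mating and homozygous for the floxed allele.

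Facilitative glucose transporters (GLUT, Slc2) let hexoses pass down their gradient, whereas most Slc5 carriers, among them the sodium-glucose cotransporters (SGLT), use the sodium gradient to concentrate sugars, inositol, short monocarboxylates or vitamins. The best known Slc16 proteins are the monocarboxylate transporters (MCT), which carry lactate and pyruvate together with protons and need a chaperone of the basigin family to reach the cell surface. Before and after implantation the endometrium takes up glucose, stores part of it as glycogen and releases sugars and lactate into the uterine fluid that surrounds the embryo.

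Of the non-control spots, 60.7%, 61.45% and 65.66% stood well above background on the Sox17f/f arrays, and 0 were saturated. Shares were lower on the Sox17ed/ed arrays, at 58.54%, 56.8% and 59.4%. The lowest signal counted as well above background, before normalization, was 13.27, 13.11 and 16.31 on the Sox17f/f arrays. It was higher on each Sox17ed/ed array, at 17.49, 17.95 and 16.96. The part of this limit in genes at background level in 1 genotype was not tested. Arrays correlated at r = 0.9903 to 0.9952 within a genotype and at 0.9624 to 0.9649 between genotypes. All 6 arrays shared 1 slide and 1 scan, with the Sox17f/f arrays in line 1 and the Sox17ed/ed arrays in line 2, so slide position and genotype cannot be told apart. *Sox17* itself had a normalized log2 signal of 12.21, 12.07 and 12.22 on the Sox17f/f arrays and of 9.75, 9.59 and 9.81 on the Sox17ed/ed arrays, a lower level on every array labelled Sox17ed/ed. Whether its probes lie inside the deleted part of the gene is not given in the sources used here.

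Of the 38 transporters with a probe, 29 passed the filter on low signal (3 or more of the 6 arrays with a signal well above background), and 8 of these differed between the genotypes at the thresholds of the study's methods, an unadjusted p under 0.01 and at least a 1.4-fold change. Below, a gene is called at background level where no array, or no array of the genotype named, was well above background. *Slc5a11*, *Slc2a3*, *Slc5a8*, *Slc5a1*, *Slc16a12* and *Slc16a7* fell in Sox17ed/ed uteri, and *Slc2a8* and *Slc16a4* rose. The 8 were 27.6% of the transporters tested, beside 12.5% of all 14790 genes tested. Separately, 2 rose where 6.02% of all genes rose, and 6 fell where 6.48% of all genes fell. *Slc5a8* and *Slc5a1* entered the test only through the Sox17f/f arrays, which made a difference between genotypes likely in advance. Among the 26 transporters measured on all 6 arrays, 6 passed (23.1%), beside 11.4% of all genes measured on all 6. The median log2 fold change was -0.07 over the 29 transporters and 0.00 over all genes, and the median size without sign was 0.42 against 0.17. The 3 arrays of each genotype did not overlap for 17 of the 29 (58.6%), beside 40.5% of all genes. For any such gene the exact permutation test gives p = 0.1, two-sided, the smallest p that 3 arrays against 3 allow, so the tests below are those of limma, whose adjusted p-values run over all genes tested.

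**Figure D1:**
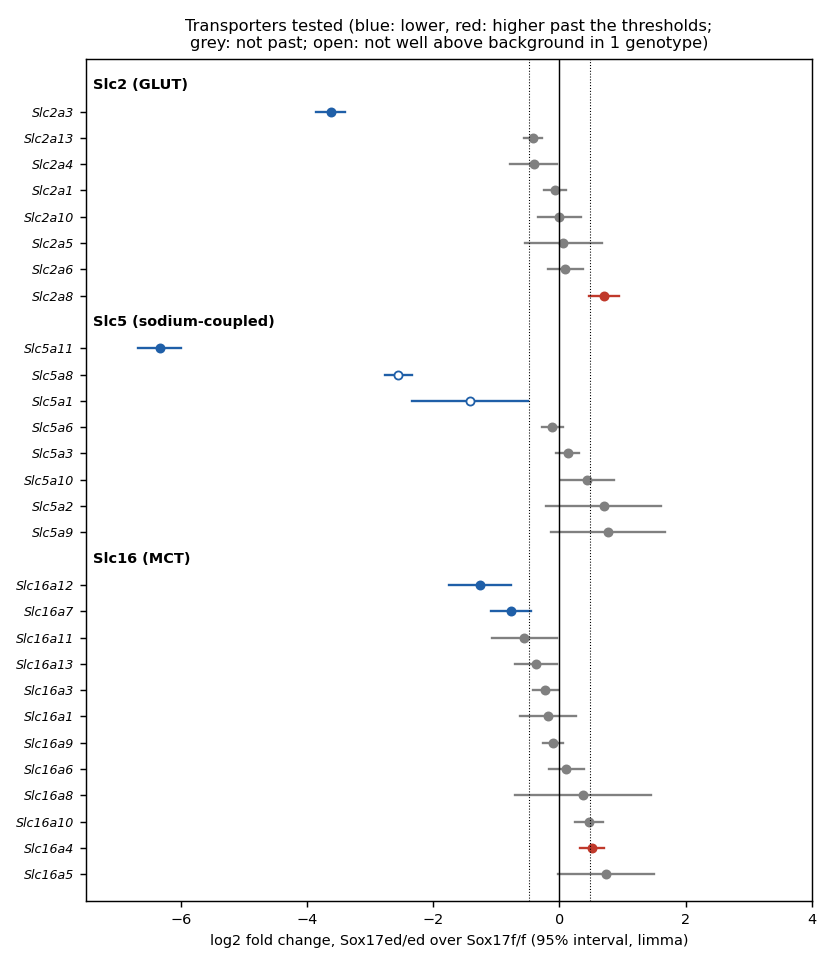
Log2 fold change of 28 of the 29 transporters tested, Sox17ed/ed over Sox17f/f (x axis), with the 95% interval of limma, by family; dotted lines mark the 1.4-fold threshold. *Slc5a11* at -6.34 and *Slc2a3* at -3.63 stand far to the left of all others, and the 2 transporters that rose, *Slc2a8* and *Slc16a4*, lie close to the threshold.

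Among the class I glucose transporters, the principal carriers of glucose into cells, *Slc2a3* fell and the others did not pass. *Slc2a3* encodes GLUT3, a transporter of high affinity for glucose. Its normalized log2 signal was 13.72, 13.58 and 13.50 in Sox17f/f uteri and 9.84, 10.00 and 10.08 in Sox17ed/ed uteri. The nearest arrays of the genotypes lay 3.42 log2 units apart, whereas arrays of a genotype differed by at most 0.24. The log2 fold change was -3.63 (standard error 0.10, adjusted p = 1.078e-05), a 12.4-fold lower level. *Slc2a1* encodes GLUT1, the widely expressed basal glucose transporter, and its values were 10.18, 10.16 and 10.27 in Sox17f/f and 10.07, 10.11 and 10.22 in Sox17ed/ed uteri. These overlap, and the log2 fold change of -0.07 had a 95% interval of -0.24 to 0.11, so a change of 1.4-fold in either direction lies outside it. *Slc2a4* encodes the insulin-responsive GLUT4 of muscle and fat, and gave -0.41 (adjusted p = 0.1165), with values of 10.57, 10.38 and 10.93 against 10.09, 10.23 and 10.34. No array measured *Slc2a2*, the GLUT2 of liver and pancreatic islets, well above background.

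The fructose carrier *Slc2a5* had a log2 fold change of 0.06 (adjusted p = 0.8928), with Sox17ed/ed replicate 2 at 7.02 and the other 5 arrays between 6.12 and 6.52. *Slc2a7* stayed near background on all arrays, and *Slc2a9*, a urate transporter, was above it on 2 Sox17f/f arrays and on no Sox17ed/ed array, too few to be tested. Of the 4 tested class III members, which act largely on internal membranes or on other substrates, *Slc2a8* rose. It encodes GLUT8, a hexose transporter of intracellular vesicles, and its values were 11.24, 11.02 and 11.31 in Sox17f/f and 11.86, 11.99 and 11.84 in Sox17ed/ed uteri. All 3 Sox17ed/ed arrays were above all 3 Sox17f/f arrays, and the log2 fold change was 0.70 (standard error 0.10, adjusted p = 0.00469). *Slc2a13*, a proton-coupled inositol carrier, was lower on every Sox17ed/ed array, at 8.76, 8.79 and 8.81 against 9.22, 9.21 and 9.19. Its log2 fold change of -0.42 (adjusted p = 0.00448) was under the fold threshold. *Slc2a6* and *Slc2a10* gave 0.09 (adjusted p = 0.6154) and 0.00 (adjusted p = 0.9945) and overlapped between the genotypes.

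**Figure D2:**
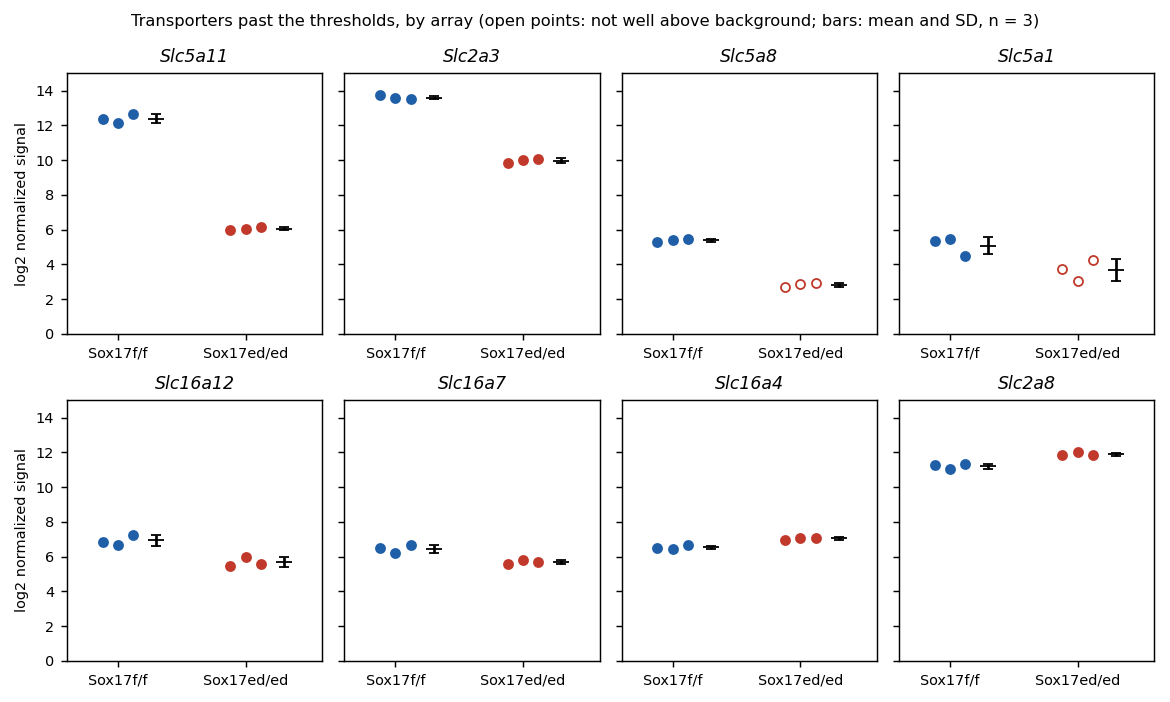
Log2 normalized signal (y axis) of the 8 transporters past the thresholds on each of the 3 Sox17f/f (blue) and 3 Sox17ed/ed (red) arrays, with the mean and SD in black; open points mark a genotype in which no array was well above background. The 2 genotypes do not overlap in any of the 8 panels, with the widest gap, 5.99 log2 units, for *Slc5a11* and the narrowest, 0.22, for *Slc5a1*.

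The largest difference among all transporters was that of *Slc5a11*, 1 of the 2 sodium-inositol cotransporters of the family. *Slc5a11* (also SMIT2 or SGLT6) had values of 12.37, 12.13 and 12.67 in Sox17f/f uteri and of 5.98, 6.04 and 6.14 in Sox17ed/ed uteri, all above background. It was thus 80.8-fold lower, at a log2 fold change of -6.34 (standard error 0.14, adjusted p = 8.356e-06). The size depended on the processing, with -5.31 after normexp background correction and -5.33 for the mean of its probes, and it passed under both. The other *Slc5a11* probe was well above background on all 3 Sox17f/f arrays, at 6.51, 6.80 and 7.22, and on no Sox17ed/ed array. A bound of this kind sets the bright genotype's mean against a floor on each array of the dim genotype. The floor is the lowest signal of any probe that counts as well above background, or the gene's own signal if higher. A probe can read above that lowest signal without counting as well above background. Each bound given as "at least" is therefore relative to this floor, and a stricter floor would make it smaller. Here it gave an at least 7.15-fold lower level. *Slc5a3* (SMIT1), the other inositol cotransporter, did not pass, with values of 8.63, 8.67 and 8.58 against 8.79, 8.65 and 8.84 and a log2 fold change of 0.13 (adjusted p = 0.2691).

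*Slc5a8* encodes SMCT1, which takes up lactate, pyruvate and butyrate with sodium. Its values were 5.29, 5.39 and 5.43 in Sox17f/f uteri. No Sox17ed/ed array was well above background, so the level is given as a bound, at least 2.58-fold lower relative to the floor described above. The adjusted p of limma, 2.451e-05, is that of the measured values and not of this bound, which was not tested. The measured values of 2.67, 2.86 and 2.92 in Sox17ed/ed uteri lie below what the arrays resolve. After normexp background correction of the median signal, with an offset of 50, the log2 fold change was -0.57 and still passed. Neither probe of *Slc5a12*, the related SMCT2, was measured well above background.

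Of the sodium-glucose cotransporters, *Slc5a1* fell and the 3 others tested did not pass. *Slc5a1* encodes SGLT1, the high-affinity glucose and galactose carrier of intestine and other epithelia. It had values of 5.32, 5.44 and 4.49 in Sox17f/f uteri and of 3.72, 3.02 and 4.27 in Sox17ed/ed uteri, where no array was well above background. The lowest Sox17f/f array and the highest Sox17ed/ed array lay only 0.22 apart, and the level was at least 1.79-fold lower relative to the same floor. *Slc5a1* passed in limma on its measured values (unadjusted p = 0.00901, adjusted p = 0.0486), and the bound itself was not tested. Leaving out 1 array ended this call for 4 of the 6 arrays (Sox17f/f replicates 1 and 2, Sox17ed/ed replicates 1 and 2), as did an ordinary linear model. *Slc5a2* (SGLT2), *Slc5a9* (SGLT4) and *Slc5a10* (SGLT5) had higher means in Sox17ed/ed uteri, with log2 fold changes of 0.70 (adjusted p = 0.2478), 0.76 (adjusted p = 0.2094) and 0.44 (adjusted p = 0.1277). *Slc5a9* read 6.28, 6.67 and 5.13 against 6.79, 6.81 and 6.77 in Sox17ed/ed uteri. *Slc5a2* was above background on 2 arrays of each genotype. The SGLT3 genes *Slc5a4a* and *Slc5a4b* were at background level throughout.

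The remaining Slc5 genes carry iodide, vitamins or choline. *Slc5a6*, the sodium-dependent carrier of biotin and pantothenate, gave -0.11 (adjusted p = 0.2926), with values of 9.64, 9.75 and 9.70 against 9.64, 9.53 and 9.59. *Slc5a5*, the sodium-iodide symporter, was above background on 2 Sox17f/f arrays and on no Sox17ed/ed array and was therefore not tested. Its values of 3.71, 4.20 and 4.81 against 1.71, 2.72 and 1.86 correspond to an at least 1.18-fold lower level, with 1 of the Sox17f/f values itself below what counts as measured. The high-affinity choline transporter *Slc5a7* was at background level on all 6 arrays.

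Among the proton-coupled monocarboxylate transporters, *Slc16a7* fell, and the other 3 did not pass. *Slc16a7* encodes MCT2, the member of highest affinity for pyruvate and lactate. Its values were 6.50, 6.21 and 6.66 in Sox17f/f and 5.57, 5.78 and 5.71 in Sox17ed/ed uteri. The genotypes did not overlap, and the log2 fold change was -0.77 (standard error 0.13, adjusted p = 0.0101), or -0.40 after normexp background correction, which ended the call. *Slc16a3* (MCT4), the lactate exporter of glycolytic cells, was lower on each Sox17ed/ed array but by little, with 9.80, 9.83 and 9.89 against 9.49, 9.67 and 9.70 (log2 fold change -0.22, adjusted p = 0.1097). Its other probe gave -0.24. *Slc16a1* (MCT1), the common lactate and pyruvate carrier, gave -0.18 (adjusted p = 0.533), with overlapping genotypes. *Slc16a8* (MCT3), known from the retinal pigment epithelium, gave 0.37 (adjusted p = 0.6045). In this gene Sox17ed/ed replicate 2 stood apart at 6.19, whereas the other 5 arrays lay between 4.47 and 4.93.

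The other Slc16 members carry aromatic amino acids, creatine or carnitine, or have substrates that are less settled. *Slc16a12*, a creatine transporter, fell, with 6.85, 6.66 and 7.26 in Sox17f/f and 5.43, 5.98 and 5.58 in Sox17ed/ed uteri (log2 fold change -1.26, standard error 0.20, adjusted p = 0.00836). *Slc16a4* (MCT5) rose, with 6.50, 6.45 and 6.64 against 6.95, 7.09 and 7.09 (log2 fold change 0.51, standard error 0.08, adjusted p = 0.0077). That is close to the fold threshold, and the call of *Slc16a4* was lost without Sox17f/f replicate 2, at 0.47, and with normexp, at 0.25, while *Slc16a12* still passed with normexp, at -0.72. *Slc16a10*, the carrier TAT1 of aromatic amino acids, was higher on every Sox17ed/ed array but under the fold threshold, at a log2 fold change of 0.47 (adjusted p = 0.0191). *Slc16a10* passed after a 75th percentile shift in place of quantile normalization, and without Sox17f/f replicate 2 or 3 or Sox17ed/ed replicate 2. *Slc16a9*, a carnitine transporter, gave -0.11 (adjusted p = 0.3137) and *Slc16a6* (MCT7) gave 0.11 (adjusted p = 0.5577), with values between 9.86 and 10.06 and between 9.95 and 10.31 over the 6 arrays. Their dimmer probes gave -0.42 for *Slc16a9* and 0.16 for *Slc16a6*, neither past the thresholds. *Slc16a11*, *Slc16a13* and *Slc16a5* gave -0.56 (adjusted p = 0.1261), -0.37 (adjusted p = 0.1088) and 0.74 (adjusted p = 0.1541). *Slc16a14* was at background level on all 6 arrays.

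Some of these genes have close relatives as their neighbours. In 3 pairs (*Slc16a11* and *Slc16a13*, *Slc2a5* and *Slc2a7*, *Slc5a4a* and *Slc5a4b*) the members lie side by side among protein-coding genes. Only 3 of these 6 genes, *Slc16a11*, *Slc16a13* and *Slc2a5*, were tested, and none of the 3 passed with all arrays. *Slc16a11* passed without Sox17f/f replicate 3, at -0.77, and *Slc16a13* without Sox17ed/ed replicate 1, at -0.50. The 8 that passed have 16 other genes as their nearest protein-coding neighbours, 14 of which were tested. By limma 0 of the 14 passed the thresholds, and 0 did so in the ordinary linear model, beside 12.5% of all genes. Their log2 fold changes ran from -0.35 to 0.16, with 1 unadjusted p under 0.05, that of *Lrig3* next to *Slc16a7*, at 0.0133. *Tnrc6a* and *Arhgap17*, on either side of *Slc5a11*, gave -0.13 and -0.10, and *Nanog* and *Foxj2*, beside *Slc2a3*, gave 0.04 and -0.35.

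The bases just before the start of the gene are printed for the largest falls with a listed start and for the rises, since these genes moved in opposite directions in the same uteri. Starts are those of RefSeq on GRCm38.p6, and each run is the 250 bases before the start, 5′ to 3′ on the strand of the gene, with capitals for any match to the motifs searched:
Slc5a11, chr7:123214616-123214865, plus strand: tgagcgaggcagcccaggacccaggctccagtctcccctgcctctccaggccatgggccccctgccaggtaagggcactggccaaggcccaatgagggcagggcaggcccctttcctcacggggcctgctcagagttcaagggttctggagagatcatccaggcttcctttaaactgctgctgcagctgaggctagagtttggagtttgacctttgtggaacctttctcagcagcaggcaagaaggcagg
Slc5a8, chr10:88885742-88885991, plus strand: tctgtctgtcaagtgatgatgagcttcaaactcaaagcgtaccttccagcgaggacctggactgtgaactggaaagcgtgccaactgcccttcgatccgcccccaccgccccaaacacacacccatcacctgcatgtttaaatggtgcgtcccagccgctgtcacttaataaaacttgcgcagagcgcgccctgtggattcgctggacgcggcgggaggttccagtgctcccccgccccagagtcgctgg
Slc2a8, chr2:32982084-32982333, minus strand: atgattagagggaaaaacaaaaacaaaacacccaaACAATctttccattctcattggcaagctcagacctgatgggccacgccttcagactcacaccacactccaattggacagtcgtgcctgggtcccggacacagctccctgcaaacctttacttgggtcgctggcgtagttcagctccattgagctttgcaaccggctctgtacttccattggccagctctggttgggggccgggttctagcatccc
Slc16a4, chr3:107290980-107291229, plus strand: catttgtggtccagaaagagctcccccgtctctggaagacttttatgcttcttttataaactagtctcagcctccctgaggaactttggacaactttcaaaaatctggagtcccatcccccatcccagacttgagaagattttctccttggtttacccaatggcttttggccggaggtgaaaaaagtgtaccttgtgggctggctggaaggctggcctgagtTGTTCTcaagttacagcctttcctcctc
The capitals in *Slc2a8* mark the SOX core ACAAT, beginning 215 bases before the start, and those in *Slc16a4* a steroid receptor half-site, TGTTCT, 28 bases before it. The windows of *Slc5a11* and *Slc5a8* held none of the motifs searched, which says only that these letters are not in these windows. Besides these motifs, the GATA letters AGATAA and the forkhead letters GTAAACA were searched, all on both strands, and no base fell in a match to more than 1 motif. Of the 8 genes that passed, 6 had a listed start. ACAAT lay before 1 of these 6, and TGTTCT before 3, *Slc16a4*, *Slc16a12* and *Slc5a1*. Over the 31 windows of the 29 family members with a listed start, 5 (16.1%) held ACAAT and 6 (19.4%) held TGTTCT, beside 27.7% and 16.1% of the 32851 windows of all genes. No member window held AGATAA and 1, of *Slc5a6*, held GTAAACA, beside 9.99% and 3.17% of all windows.

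Transporters act together with enzymes that trap or convert their cargo and with chaperones, so 45 partner genes in 9 lists were measured in the same fit. Of 42 tested, 10 rose and 3 fell in Sox17ed/ed uteri, together 31.0%, beside 12.5% of all genes, and their median log2 fold change was 0.19. Among the 39 measured on all 6 arrays, 12 passed (30.8%), beside 11.4% of all genes so measured. All 3 tested partners of the sodium-glucose cotransporters rose by their brightest probe. The next brightest probe gave 1.35 for *Pdzk1*, which passed, and 0.83 for *Pdzk1ip1*, which did not. In the ordinary linear model *Pdzk1ip1* did not pass either. *Pdzk1*, a scaffold protein of apical membranes, read 4.78, 4.69 and 4.13 against 6.95, 7.17 and 6.90 (log2 fold change 2.47, adjusted p = 0.000408), and *Sgk1*, a kinase that raises the surface level of many carriers and of the epithelial sodium channel, read 10.99, 10.85 and 10.60 against 12.71, 12.19 and 12.58 (1.68, adjusted p = 0.00123). *Pdzk1ip1*, a membrane protein that binds PDZK1 and pairs with SGLT2, rose by 1.04 on the log2 scale (adjusted p = 0.0286), with Sox17f/f replicate 3 at 12.92 and the other Sox17f/f arrays at 12.15 and 12.04, and it did not pass without Sox17f/f replicate 1 or 2 or without any 1 of the Sox17ed/ed arrays. The *Slc5a1* values given above, at background level in Sox17ed/ed uteri, moved the opposite way to those of these partners. The means of *Slc5a2*, *Slc5a9* and *Slc5a10* were higher in Sox17ed/ed uteri, like those of the partners, but did not pass.

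Of the chaperones of monocarboxylate transporters, *Emb* fell and *Bsg* and *Nptn* did not pass. *Emb* encodes embigin, the usual partner of MCT2, and read 12.10, 12.16 and 12.08 in Sox17f/f and 10.47, 10.69 and 10.67 in Sox17ed/ed uteri (log2 fold change -1.51, adjusted p = 0.000112). *Bsg*, basigin, the usual partner of MCT1 and MCT4, was slightly higher on every Sox17ed/ed array, with 0.32 (adjusted p = 0.0176), under the fold threshold. Both *Emb* and *Slc16a7* were thus lower on all 3 Sox17ed/ed arrays. Of the enzymes at the ends of glycolysis, *Ldhb*, the lactate dehydrogenase subunit of oxidative tissues, rose by 0.66 (adjusted p = 0.00366), and *Ldha*, the subunit of glycolytic tissues, gave -0.33 (adjusted p = 0.0254), under the fold threshold.

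Of the 7 tested genes that trap or release glucose, 1 rose and 2 fell. *Hk2*, the inducible hexokinase, read 9.43, 9.34 and 9.29 against 7.95, 8.28 and 8.16 (log2 fold change -1.23, adjusted p = 0.00057). *Hkdc1*, which encodes a further hexokinase, entered the test only through the Sox17ed/ed arrays, where it is high. It was at background level on the Sox17f/f arrays and read 5.99, 5.20 and 5.79 in Sox17ed/ed uteri, an at least 4.12-fold higher level. With normexp, *Hkdc1* and *Pdzk1* still passed, at smaller log2 fold changes of 0.67 and 1.11. *Hk1*, the hexokinase of most tissues, gave 0.35 (adjusted p = 0.027) and did not pass on fold. *Txnip*, an arrestin-like protein that draws GLUT1 and GLUT4 from the cell surface, rose by 0.61 (adjusted p = 0.0266), with 12.59, 12.41 and 12.43 against 13.19, 13.25 and 12.80. Its call did not hold without Sox17f/f replicate 2 or 3 or Sox17ed/ed replicate 1 or 2, nor in the ordinary linear model. The other 5 genes of glucose transporter trafficking did not pass.

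Of 3 tested genes of the polyol and fructose route, 0 passed by limma and 0 in the ordinary linear model, with 2 at an unadjusted p under 0.05, and *Akr1b3*, aldose reductase, was higher on every Sox17ed/ed array, with 0.45 (adjusted p = 0.0062). Of the inositol genes, *Impa2*, an inositol monophosphatase, rose by 0.50 (adjusted p = 0.0223), close to the threshold, and did not pass without Sox17f/f replicate 1 or 2 or Sox17ed/ed replicate 2. Nor did *Impa2* pass after a 75th percentile shift, at 0.47, with normexp, at 0.43, or in the ordinary linear model. *Isyna1*, the enzyme that makes inositol phosphate from glucose phosphate, gave 0.11 (adjusted p = 0.4561). Among genes that handle other cargo of the families, *Slc44a2*, a choline transporter-like protein, rose by 0.66 (adjusted p = 0.00469) and *Dio2*, the deiodinase that activates thyroid hormone inside cells, by 0.93 (adjusted p = 0.0124).

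**Figure D3:**
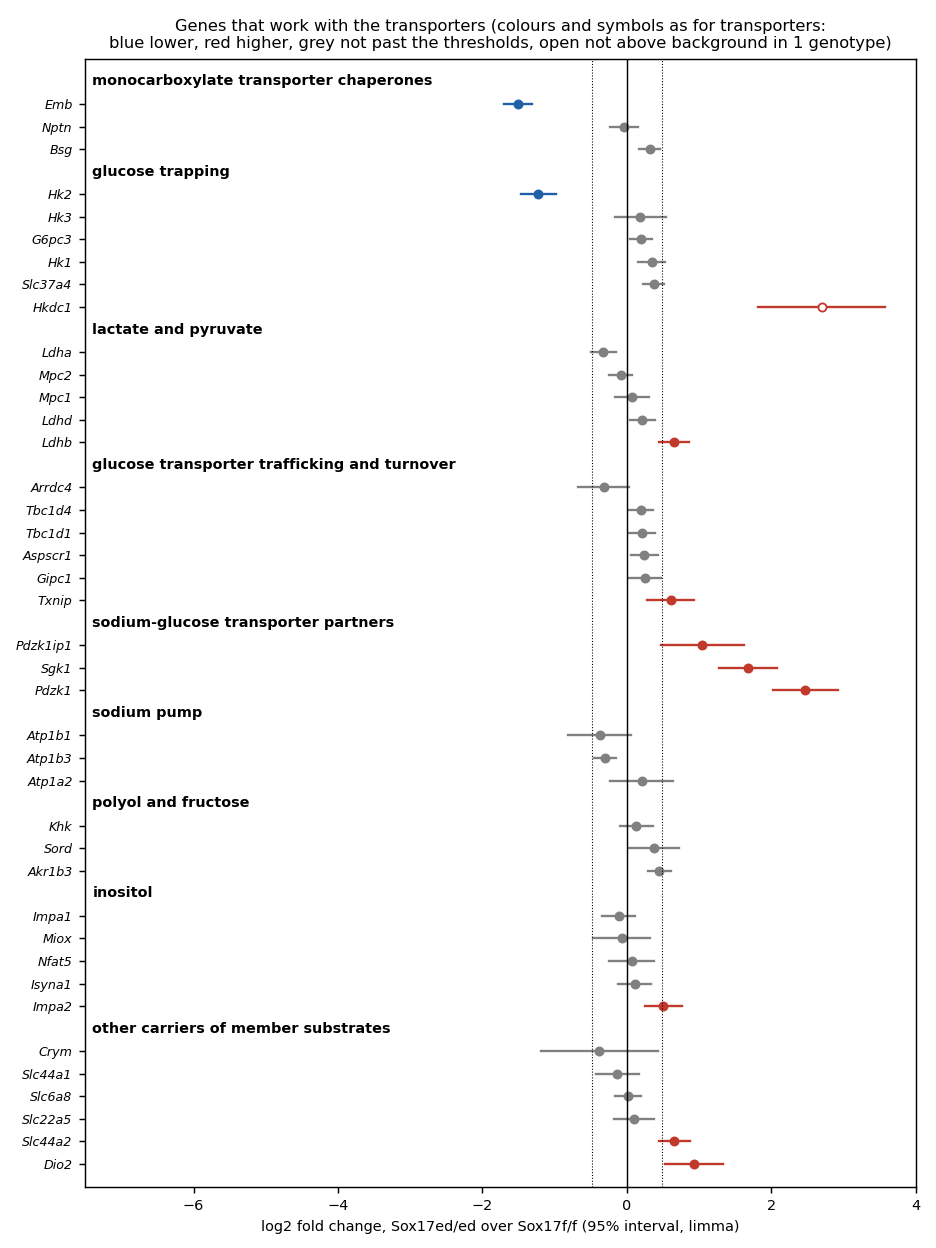
Log2 fold change of 40 of the 42 partner genes tested, Sox17ed/ed over Sox17f/f (x axis), with the 95% interval of limma, by list; dotted lines mark the 1.4-fold threshold. *Emb* and *Hk2* lie to the left of the threshold, and all 3 partners of the sodium-glucose cotransporters lie to the right of the threshold.

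In whole uterus fewer cells of a type and less RNA per cell cannot be told apart. Of 11 markers of uterine epithelium, all measured, *Cdh1*, *Krt8*, *Krt19* and *Krt7* rose and *Cldn3* and *Cldn7* fell, and their summed signal was 55551 to 58617 on the Sox17f/f and 55816 to 68747 on the Sox17ed/ed arrays. The summed signal of 9 stromal markers, 7 endothelial markers and 6 smooth muscle markers was lower on each Sox17ed/ed array, at 491808 to 509651 against 428914 to 487345, 16953 to 20417 against 14329 to 15162, and 469483 to 516561 against 341332 to 412246. Such sums weigh the brightest genes most. The median log2 fold changes were 0.03, -0.32 and -0.31, and 5 stromal markers had a positive and 4 a negative log2 fold change. Of these markers, 0 stromal ones passed by limma or the ordinary linear model, with 4 at an unadjusted p under 0.05, *Cldn5* rose and *Vwf* fell of the endothelial ones, and *Actg2* fell of the smooth muscle ones. The part of these differences in marker signal in the transporter values was not tested. Of the leukocyte (5 tested), neutrophil (4), erythrocyte (5) and adipocyte (2) markers 0 passed in limma or the ordinary linear model, with 2, 0, 1 and 0 at an unadjusted p under 0.05, and their summed signals overlapped between the genotypes for all but the leukocyte list, at 19236 to 21915 against 22603 to 26277. In the leukocyte list 2 log2 fold changes were positive and 3 negative, with a median of -0.06. The adipocyte markers *Plin1*, *Cidec*, *Lep* and *Retn* did not pass the filter on low signal, nor did the squamous markers *Dsg3*, *Krt6a* and *Ivl*. Of the other squamous markers, *Trp63* and *Krt14* did not pass, with log2 fold changes of -0.12 and 0.30 (adjusted p = 0.4676 and 0.2704 in limma). *Krt5* rose, at background level on the Sox17f/f arrays and at 7.80, 4.94 and 5.33 on the Sox17ed/ed arrays. It entered the test only through the Sox17ed/ed arrays, where it is high. Of 5 tested pancreas markers *Cpa1* and *Cel* fell, the summed signal being 477 to 533 against 353 to 414.

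**Figure D4:**
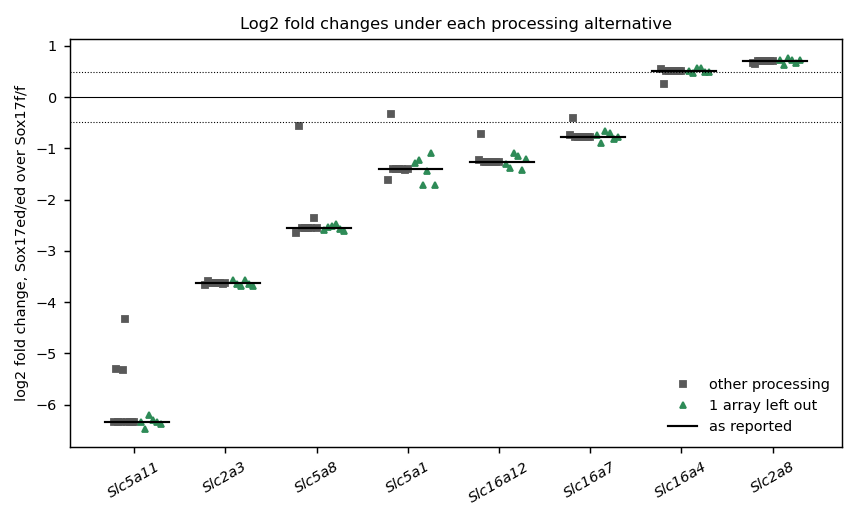
Log2 fold change, Sox17ed/ed over Sox17f/f (y axis), of the 8 transporters past the thresholds, as reported (line), under other processing (squares) and with 1 array left out (triangles); dotted lines mark the 1.4-fold threshold. The values of *Slc2a3* lie between -3.68 and -3.56 throughout, whereas those of *Slc5a8* reach -0.57 and those of *Slc5a1* reach -0.33 with normexp background correction.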

How the data were processed

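Whole uteri of 3 Sox17f/f and 3 Sox17ed/ed mice, grouped by the labels' titles, were measured on 1-colour Agilent G3 Mouse GE arrays. With 3 arrays in each group, their number limits the precision.

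For each array the authors deposited the scanner output (Feature Extraction 11.0.1.1 per the file headers, 9.1 per the submitters' processing notes), and for all arrays a table of processed values. Of the deposited intensities the processed signal was used, background-subtracted by that software and not normalized between arrays. Subtraction leaves dim values uncertain, so a gene at background level in 1 genotype is given as a bound. The table lay within 0.191% of these intensities.

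Control spots and spots marked as outliers (169 to 302 per array) were left out, and log2 intensities were quantile normalized, as in the study's methods. After averaging the spots of each probe, only probes well above background on 3 or more of the 6 arrays were used. Genes that an outlier spot left without a value on an array were dropped (57 genes, no transporter among them). RefSeq accessions named 26582 of 55681 probes, for 20145 genes of the GRCm38.p6 table, 16194 probes carry only a position (design build mm9) and 12905 an unmatched accession. The brightest probe on average was taken for each gene, and 12 transporters had more than 1 probe.

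Differences were tested with limma 3.58.1 (lmFit, eBayes) in R 4.3.3 over 14790 genes, with Benjamini-Hochberg adjustment, at the thresholds of the study's methods. Python 3.11.15 with pandas 2.3.3, numpy 2.4.6 and matplotlib 3.10.9 made the tallies and plots. On data simulated from these arrays, 82 of 90 genes changed by 1 log2 unit and 106 of 110 changed by 2 were recovered.

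The transporters, partner genes and marker lists were chosen with earlier results of these data known. Named are the transporters and the partner and marker genes that passed, apart from 1 transporter and 2 partner genes that are counted but not reported here by name, with *Bsg*, *Hk1*, *Ldha*, and, picked with their values seen, *Nptn*, *Akr1b3*, *Isyna1* and the neighbours, besides the markers that did not pass the filter on low signal in the adipocyte and squamous lists. The scanner files used hold no mean signal, so normexp was run on the median signal. The alternatives were a 75th percentile shift, normexp with an offset of 50, no filter, all 6 arrays above background, the mean or the next brightest probe of a gene, an intensity trend, an unmoderated linear model, the deposited table, the replicate block, a fold threshold of 2, an adjusted p under 0.05, and leaving out each array.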

Additional observations from a re-analysis of the deposited data

Results flagged for a closer look

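The other probe of *Slc5a9*, which the comparison did not use, gave a log2 fold change of 1.67, with 3.97, 4.71 and 2.06 on the Sox17f/f arrays and 5.28, 4.93 and 5.55 on the Sox17ed/ed arrays. It is listed here because it was well above background on all 3 Sox17ed/ed arrays and on 1 Sox17f/f array, with genotypes that did not overlap. Choosing the probe in this way made a difference between genotypes likely in advance. The 95% interval of its log2 fold change, -0.11 to 3.46, included no change.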

How the results depend on the processing

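The count of 8 transporters past the thresholds lay between 7 and 10 when single arrays were left out, with 2 to 3 higher and 5 to 7 lower, and that of 13 partner genes between 10 and 13. Normexp background correction left 5 transporters, 1 of them higher, and the genes lost were *Slc16a4*, *Slc16a7* and *Slc5a1*. A fold threshold of 2 also left 5, with 0 higher, and gave 6 partner genes. An adjusted p under 0.05 with no fold threshold gave 11, with 4 higher, *Slc16a10* and *Slc2a13* among those added. With no filter on low signal *Slc5a5* passed and *Slc5a1* did not. Over 31 genes, 472 alternative values were computed. Of these, 443 kept their direction and their side of the thresholds, 29 kept the direction but no longer passed and 0 changed direction. The losses were those of *Impa2*, *Pdzk1ip1*, *Slc16a4*, *Slc16a7*, *Slc5a1* and *Txnip*. Not among the 472 are the fold threshold of 2, the adjusted p and genes that a setting removed. The intensity trend, the unmoderated model and the block leave a log2 fold change as it is, so direction could not change there. Same-numbered arrays of the genotypes did not deviate together (correlations 0.06, -0.11 and 3e-04), which cannot show whether the mice were paired. With the replicate number as a block 7 transporters passed, without *Slc5a1*. Signals near background limit *Slc5a8*, *Slc5a1* and *Slc5a5* to bounds. The cause of the changes between settings was not tested, apart from the genes that each filter or threshold removes.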
